A study of Mus musculus with 20 samples.

Results

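A set of 118 genes carried 20 or more unique m6A positions in at least 1 of 4 lists of positions called on chromatin-associated RNA from mouse cells, out of 8326 genes with any position (1.42%). The genes were chosen by the position numbers themselves, so these numbers are given as a description and carry no test. Ttn, Kcnq1ot1, Neat1, Malat1 and Airn were left out by name. Of these 5, Ttn (151 positions at most), Airn (130) and Kcnq1ot1 (77) would have passed the threshold, while Neat1 reached 18 and Malat1 reached 8. At the threshold stood 14 genes with a maximum of 20, such as Setd2 (15 positions in CM KO, 20 in CM WT, 20 in ESC KO and 20 in ESC WT), and just outside it 19 genes with a maximum of 19, such as Setd5 (19, 19, 17 and 10 in the same order).

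The cells were C57BL/6 embryonic stem cells (ESC) and cardiomyocyte cultures (CM) made from such cells through embryoid bodies, each either Mettl3 knockout (KO) or wild type (WT), with no further treatment named in the labels. The 4 groups are CM KO, CM WT, ESC KO and ESC WT. Sequencing of chromatin-associated RNA (ChrRNA-seq) and of the same fraction enriched with 2 m6A antibodies (Chrm6A-seq) had 1 sample per group, so differences between groups have no replicate check. ATAC-seq, which maps accessible chromatin, had 3 libraries per group. The labels do not say how many KO clones were used.

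N6-methyladenosine (m6A) is the commonest internal base modification of mammalian messenger RNA. METTL3 is the catalytic subunit of the nuclear complex that deposits it on nascent transcripts, preferentially where the methylated A stands in a GGAC-like context, and in mature messenger RNA the mark is known to be dense in long internal exons and near stop codons. Chromatin-associated RNA is rich in unspliced transcripts, so positions can also lie in introns.

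Each list gives a gene, a distance from the gene's first base along the transcript with introns counted, and a motif of 4 letters. The motif is GGAC on the largest number of lines. Other lines carry AGAC. The remaining lines have GAAC, or else AAAC. To show what a listed position looks like, 8 positions of 7 of the genes are given here with 13 bases on each side, from the RefSeq promoter windows of GRCm38.p6 and on the transcript's strand, with the listed motif in capitals. They were taken from the 55 positions of the genes that fall inside such a window, as those where the listed motif stands at the listed distance.
Adnp, chr2:168207076-168207105, listed under Adnp in CM KO and under the overlapping Gm20716 in CM WT and ESC KO: agggcaggttcggGGACttgctctgaggcg
Ahnak, chr19:8989298-8989327, listed in CM KO: agctctgccgcggGGACtgcactgtccgcc
Asxl2, chr12:3426901-3426930, listed in all 4 groups: gcttgtacagtaaGAACccaatatggcagc
Map1b, chr13:99516506-99516535, listed in CM WT: agcggcgggagagGAACacttctctcaggc
Rbm39, chr2:156180195-156180224, listed in all 4 groups: ttgcggctccgggAGACcccgggtgtttgt
Srcap, chr7:127511997-127512026, listed in CM WT and ESC KO: gtgtatcgcgagaAGACgggccgctctggc
Tsc22d1 first position, chr14:76415832-76415861, listed in CM KO, CM WT and ESC WT: agtgaatggcgaaGGACtgaaggggtcccc
Tsc22d1 second position, chr14:76504527-76504556, listed in CM WT, ESC KO and ESC WT: cggcagccgagtaGGACcgagctgctgcag
The Asxl2 and Rbm39 positions near the gene start were found in every list, while the GGAC near the start of Ahnak was listed in CM KO only.

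The lists held 13962 unique positions in CM KO, 25617 in CM WT, 18076 in ESC KO and 16983 in ESC WT, in 4962, 7572, 5342 and 5367 genes. The read depth behind them is unknown. Both KO lists held many positions, and more were listed in ESC KO than in ESC WT. Whether the listed positions depend on METTL3 was not tested, so a listed position is a call and not proven methylation. The 118 genes held 1692 positions in CM KO, 2624 in CM WT, 2781 in ESC KO and 2349 in ESC WT, which is 12.1%, 10.2%, 15.4% and 13.8% of each list. In the ChrRNA-seq libraries, RPKM spacing gave an estimated 27900000 to 29800000 reads. Summed RPKM of 8 cardiac muscle markers was 1.47 in CM KO and 7.62 in CM WT, with all 8 listed, against 0.224 in ESC KO and 0.294 in ESC WT, where 4 and 5 were listed. Gata4 gave 0.964 of the CM KO sum and 2.01 of the CM WT sum. In CM KO each of the other cardiac markers was at 0.161 RPKM (Ryr2) or less. Summed RPKM of the 6 pluripotency markers was 10.4, 6.63, 47.4 and 52.5 in CM KO, CM WT, ESC KO and ESC WT, with Sox2 not listed in any. Mettl3 itself had 1.07, 1.18, 1.28 and 1.73 RPKM, but the deleted part is not given, and reads over the whole gene do not check the genotype.

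Each of the 4 lists held at least 1 position, not always the same one, of 107 of the 118 genes. The threshold of 20 was reached by 31 of the genes in CM KO, 70 in CM WT, 75 in ESC KO and 60 in ESC WT. It was reached in a single list by 49 genes, of which 21 did so in CM WT, 21 in ESC KO, 6 in ESC WT and 1 in CM KO. The 12 genes that reached it in every list include Kmt2a, Plec, Mki67 and Zfp292. Mki67, the proliferation marker, had 36, 36, 32 and 33 positions in CM KO, CM WT, ESC KO and ESC WT. A further 9 genes reached 20 in both CM lists and neither ESC list, and 17 in both ESC lists and neither CM list.

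**Figure D1:**
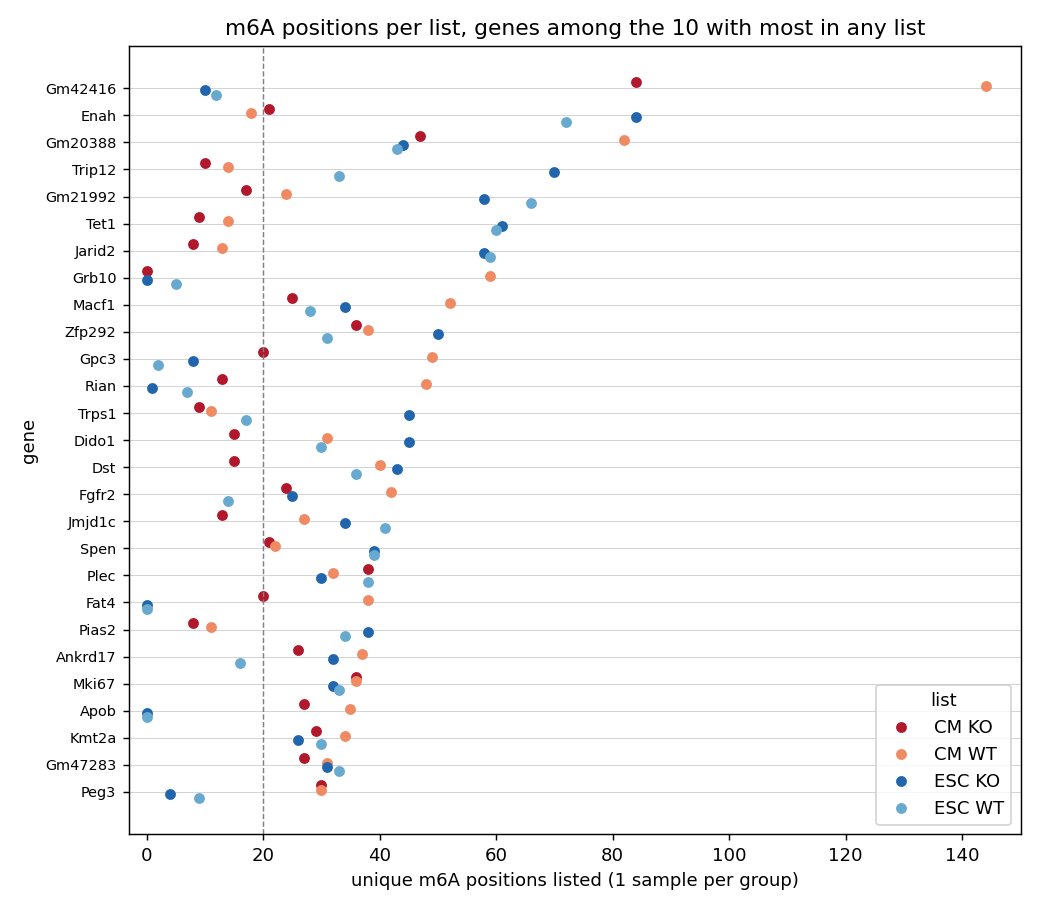
Unique m6A positions (x axis) in CM KO, CM WT, ESC KO and ESC WT for the genes of the set that were among its 10 with the most positions in any list; the dashed line marks 20. Gm42416 reached 144 in CM WT, Enah 84 in ESC KO, and Fat4 and Apob had 0 in both ESC lists.

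Chromatin and transcription regulators, the longest of the functional lists used here, had 24 of 100 listed genes in the set. Over all the lists it was 56 of 483 genes, and over all genes with a position 118 of 8326. The imprinted list, with 5 of 22, and the RNA processing list, with 8 of 38, had shares of similar size. The lists were chosen with earlier results known. Together the 24 regulator genes held 367 positions in CM KO, 490 in CM WT, 621 in ESC KO and 583 in ESC WT. Kmt2a, a histone H3 lysine 4 methyltransferase (chr9:44803355-44881352), had 29, 34, 26 and 30 positions in CM KO, CM WT, ESC KO and ESC WT, one of the flattest patterns. Tet1, a 5-methylcytosine dioxygenase abundant in stem cells (chr10:62804570-62887469), had 9 in CM KO and 14 in CM WT, against 61 in ESC KO and 60 in ESC WT. Of these Tet1 positions, 7, 12, 40 and 39 in CM KO, CM WT, ESC KO and ESC WT lay within its RefSeq length. Jarid2, a cofactor of Polycomb repressive complex 2, had 8 and 13 in CM KO and CM WT, against 58 and 59 in ESC KO and ESC WT. The histone demethylase gene Jmjd1c had 13 and 27 in CM, against 34 and 41 in ESC, in the order KO and WT. For Tet1 and Jarid2 both ESC lists stood far above both CM lists, whichever the genotype.

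The RNA processing list placed 8 of its 38 genes in the set, with 107, 171, 174 and 147 positions in CM KO, CM WT, ESC KO and ESC WT. Ddx17, an RNA helicase and at 19069 bp the shortest of the genes, had 20, 22, 18 and 17. Rbm25, a splicing regulator, had 9, 16, 39 and 22. In the ubiquitin system, the ligase gene Trip12 had 10, 14, 70 and 33, and the deubiquitinase gene Usp9x had 4, 7, 29 and 11. Both had their highest number in ESC KO.

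Of the cytoskeleton and giant protein list, 7 of 42 genes were in the set, with 137, 230, 191 and 166 positions in CM KO, CM WT, ESC KO and ESC WT. The spectraplakin genes Macf1 (25, 52, 34 and 28) and Dst (15, 40, 43 and 36) had fewer positions in CM KO than in CM WT, whereas Plec, encoding the cytolinker plectin, had 38, 32, 30 and 38. Fat4, a giant cadherin, had 20 and 38 in CM KO and CM WT and none in either ESC list. Enah, an actin regulator of the Ena/VASP family (chr1:181896384-182027556), had the most in the set in both ESC lists, with 84 in ESC KO and 72 in ESC WT, against 21 in CM KO and 18 in CM WT.

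Among matrix and surface genes, Fn1 (fibronectin) had 24, 25, 38 and 28 positions and Vcan (versican) 24, 37, 8 and 15 in CM KO, CM WT, ESC KO and ESC WT. The heparan sulfate proteoglycan genes Gpc3 (20, 49, 8 and 2) and Gpc6 (7, 22, 0 and 0) had their highest number in CM WT. Apob, the liver and yolk sac apolipoprotein gene, had 27 and 35 in CM KO and CM WT and none in ESC. The summed RPKM of 4 fibroblast markers, all listed in CM, was 7.69 in CM KO and 27.3 in CM WT, against 0.245 in ESC KO and 0.184 in ESC WT with 3 listed each. The 4 endoderm markers, which include Apob, summed to 5.65 in CM KO and 14.0 in CM WT with all listed, against 0.0582 in ESC KO and 0.0383 in ESC WT with 2 and 1 listed. The part of these other cell types in the CM positions was not tested. In such bulk samples, fewer cells of a type and less RNA per cell cannot be told apart.

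Imprinted genes contributed 5 of the 22 listed, and together had 66 positions in CM KO, 184 in CM WT, 9 in ESC KO and 31 in ESC WT. Grb10, an imprinted adaptor of insulin receptor signalling (chr11:11930499-12037428), had 0 in CM KO and 59 in CM WT, and 0 in ESC KO and 5 in ESC WT. Its chromatin RNA moved the same way, with 0.380 RPKM in CM KO and 7.05 in CM WT, and 0.194 RPKM in ESC KO and 3.55 in ESC WT. The ratio of RPKM was 0.0538 in CM (95% interval 0.0508 to 0.0571) and 0.0547 in ESC (0.0502 to 0.0595). These intervals, like all those on RPKM ratios below, come from estimated read numbers and cover counting error only. The maternally expressed long noncoding RNA genes Rian (13, 48, 1 and 7 positions in CM KO, CM WT, ESC KO and ESC WT) and Meg3 (16, 22, 4 and 10) also had fewer positions in KO in both cell types. Their RPKM was lower in KO too, with ratios of 0.778 in CM and 0.626 in ESC for Rian. For Meg3 the ratios were 0.546 and 0.518. In CM, 98 of the 118 genes of the set had fewer positions in KO. Peg3, a paternally expressed zinc finger gene, had 30 in both CM lists, against 4 in ESC KO and 9 in ESC WT. Zim1, its imprinted neighbour, had 7 and 25 in CM KO and CM WT and none in ESC. None of the genes on the cardiac, blood and endothelium, neural or m6A machinery lists was in the set. Ttn, the titin gene with up to 151 positions, was left out by name, so the lack of cardiac genes is partly set by the rule. Tpm1, on none of the lists used here, was in the set with 9, 22, 2 and 0 positions in CM KO, CM WT, ESC KO and ESC WT.

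Adnp, a zinc finger homeobox gene (chr2:168180965-168207112), was the gene that reached 20 in CM KO alone, with 22 positions there and none in the other lists. The overlapping Gm20716, whose RefSeq span also overlaps Dpm1, showed the reverse, with 0 positions in CM KO, 18 in CM WT, 21 in ESC KO and 21 in ESC WT. At a constant shift of 23252 bp, 19 of the 22 Adnp positions coincided with a position listed under Gm20716, while the next best shift gave 1. In each of CM WT, ESC KO and ESC WT, 13 of the 22 were listed under Gm20716. Taken as one locus, the pair had 22, 18, 21 and 21 positions in CM KO, CM WT, ESC KO and ESC WT, so its number was much alike in the 4 lists once the name was set aside. The RPKM tables divided the reads between the names as well. Adnp was listed in CM WT only (7.11 RPKM), and Gm20716 had 5.25, 0.651, 4.36 and 4.82 RPKM in CM KO, CM WT, ESC KO and ESC WT. No other gene of the set shared 5 or more positions with another name at a constant shift.

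**Figure D2:**
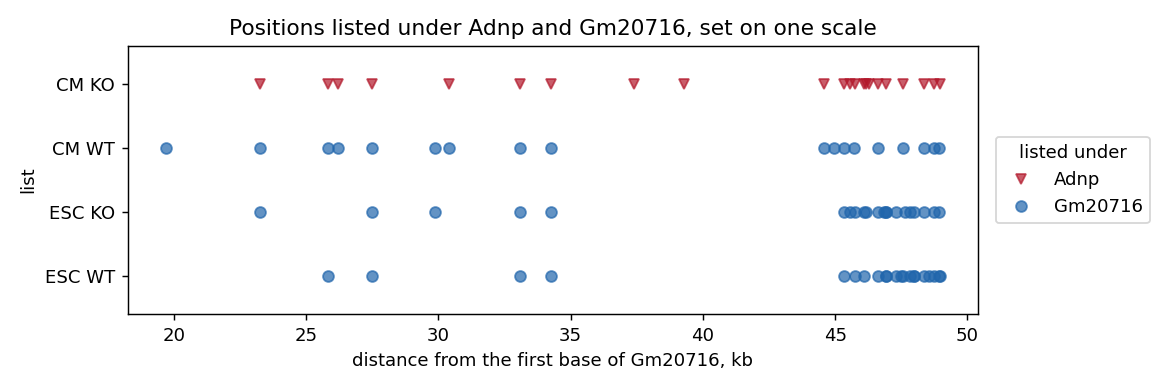
Each point is a listed position, by its distance from the first base of Gm20716 in kb (x axis) and by list (rows); triangles are listed under Adnp and circles under Gm20716. The CM KO row holds 22 triangles and no circle, and the other rows hold circles only, many at the same distances.

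Some names cover much more than the RefSeq gene. Fgfr2, a fibroblast growth factor receptor gene of 104358 bp in RefSeq, had positions up to 2960116 bp from its start, and of its 24, 42, 25 and 14 positions in CM KO, CM WT, ESC KO and ESC WT only 5, 12, 16 and 8 lay within the RefSeq length. Chd1, a chromatin remodeller gene, had 8, 27, 30 and 25 positions, of which 3, 8, 5 and 4 lay within it. Within the set, Gm42416 had the most positions in the CM lists, with 84 positions in CM KO and 144 in CM WT, against 10 in ESC KO and 12 in ESC WT, spread up to 868268 bp. Gm20388 had 47, 82, 44 and 43 positions up to 4433208 bp. In all, 16 genes had positions beyond their RefSeq length and 7 had no RefSeq entry, and 74 of the 111 with an entry overlap another RefSeq gene, whose positions were not told apart here.

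The genes were long. Among the 111 with a RefSeq entry, of which 108 are protein-coding and 3 are long noncoding RNA genes, the median span was 82900 bp, against 27442 bp for the other genes with a position. The middle 50% ran from 49326 to 132191 bp, 44 exceeded 100 kb and 10 were shorter than the median of the other genes. Gpc6, at 1054610 bp the longest, had the lowest density with 0.0209 positions per kb in its richest list. Mki67 had the highest, with 1.35 per kb, followed by Ddx17 (1.15), Flna, encoding filamin A (1.14), and Zim1 and Peg3 (1.13 each). The median density was 0.368 per kb.

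Among genes with at least 1 RPKM, a larger share of those of 50 to 100 kb than of those under 20 kb reached 20 positions in every list. In CM WT it was 0.05% of 2000 genes under 20 kb, 3.17% of 630 genes of 50 to 100 kb and 10.2% of 98 genes of 200 kb or more. The same order held in ESC KO, with 0% of 2093, 4.49% of 623 and 12% of 50 genes. In ESC WT the share was 4.96% of 282 genes of 100 to 200 kb and 4.62% of 65 genes of 200 kb or more. Within the set, however, positions were almost unrelated to length, with Spearman coefficients across genes of 0.03 in CM KO, 0.11 in CM WT, 0.08 in ESC KO and -0.12 in ESC WT (110 or 111 genes). The coefficients with RPKM were 0.13, 0.23, 0.49 and 0.45. Length and RPKM ran against each other within the set (-0.54, -0.50, -0.41 and -0.40). These coefficients describe genes, which share their library and are no independent replicates, and the choice at 20 positions limits the range of the numbers.

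**Figure D3:**
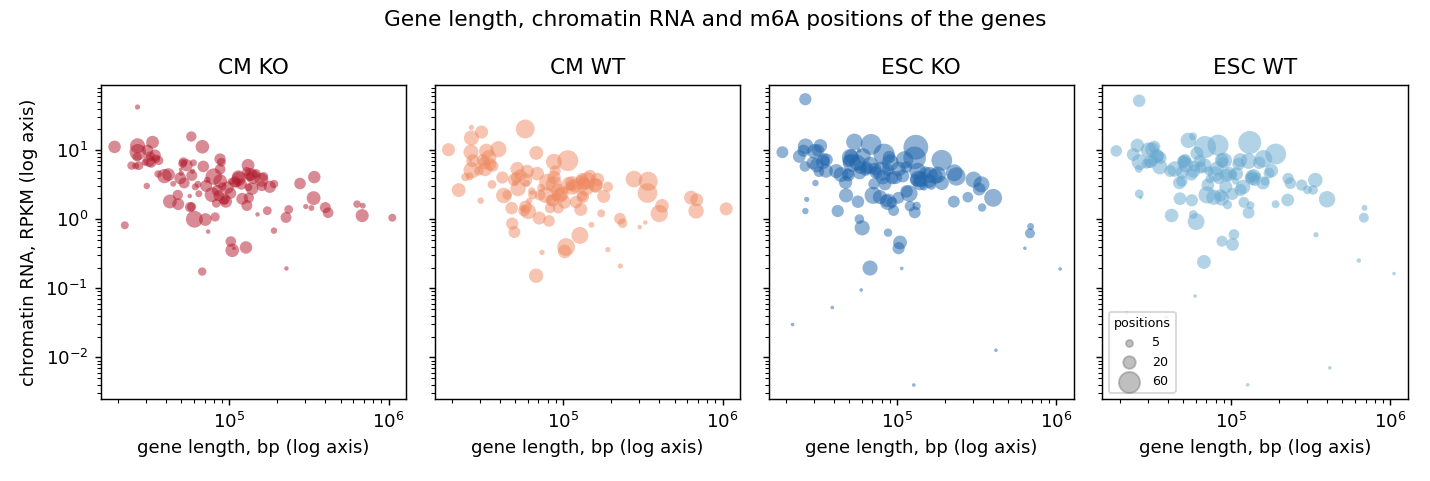
Chromatin RNA in RPKM (y axis, log) against RefSeq gene length in bp (x axis, log) for the genes with a RefSeq entry, 1 panel per group, with symbol area growing with the number of positions. Longer genes had lower RPKM, and large symbols occur over most of the range of lengths.

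The positions of a gene were bunched in some genes and scattered in others. The densest 10 kb window held a median of 47.7% of a gene's positions in its richest list, with a range of 11.8% to 96.3%. In 57 genes it held at least 50%; their median length was 51517 bp, against 105644 bp for the other 61. Plec had 94.7% of its positions in 10 kb and Ddx17 95.5%, while Trip12 had 15.7% and Trps1 13.3%.

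Compared with other genes, the positions lay less often near the 3′ end. Over genes whose positions all fall within the RefSeq length and which have a RefSeq entry, 19.2% of the set's positions in CM KO, 19.4% in CM WT, 16.8% in ESC KO and 19.6% in ESC WT were in the final 10% of the gene. For the other genes the shares were 31.4%, 34.6%, 27.7% and 32.6%, and the exact 95% intervals of the 2 sets of genes did not overlap in any list. The first 10% of the gene held 9.76%, 10.8%, 10.9% and 10.4% of the set's positions, against 14.5%, 13.9%, 15.0% and 12.0% in the other genes. Genes of the set are longer, and the effect of length on these shares was not tested.

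GGAC was rarer and AAAC commoner at the positions of the set than at those of other genes. GGAC made up 29.1% of the set's positions in CM KO (exact 95% interval 27.0 to 31.4), 27.8% in CM WT (26.1 to 29.5), 22.5% in ESC KO (21.0 to 24.1) and 25.0% in ESC WT (23.2 to 26.8). In the other genes it made up 33.3%, 34.2%, 30.2% and 32.3% in CM KO, CM WT, ESC KO and ESC WT, above the set's interval in each list. AAAC made up 21.5%, 23.0%, 27.4% and 25.7% of the set's positions, against 18.6%, 17.8%, 20.7% and 19.3% elsewhere. Positions of 1 list are not replicates, so these intervals cover counting error only. Over all positions of a gene the GGAC share ran between 3.03% in Fut9, a fucosyltransferase gene, and 52.2% in Ptprg, a receptor tyrosine phosphatase gene. Kmt2d, another H3 lysine 4 methyltransferase gene, had 50% and Usp9x 5.56%.

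The GGAC share did not follow gene length within the set. It was 22.4% in genes under 50 kb, 22.8% in genes of 50 to 100 kb and 24.0% in genes of 100 kb or more, with overlapping intervals. It did follow how many lists held the position. Of the set's positions found in 1, 2, 3 and 4 lists, 20.2%, 25.6%, 29.8% and 32.3% were GGAC. The other genes gave 30.2%, 31.8%, 33.5% and 36.1%, so the gap between the set and the other genes was 10.0 percentage points at positions found once and 3.8 at positions found in all 4. At 3 and at 4 lists the intervals of the set and of the other genes overlapped. The share also differed with which lists held the position. The set's positions in both ESC lists only had 20.8% GGAC, and those in both CM lists only had 32.9%.

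Of the 5593 different positions of the set, 57.6% were in a single list and 8.14% in all 4, against 55.9% and 10.5% in the other genes. Single genes ranged between 0% and 27.3% in all 4 lists, the highest share being that of Ddx17 with 9 of 33. Grb10, Gpc3 and Apob had no position in all 4.

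**Figure D4:**
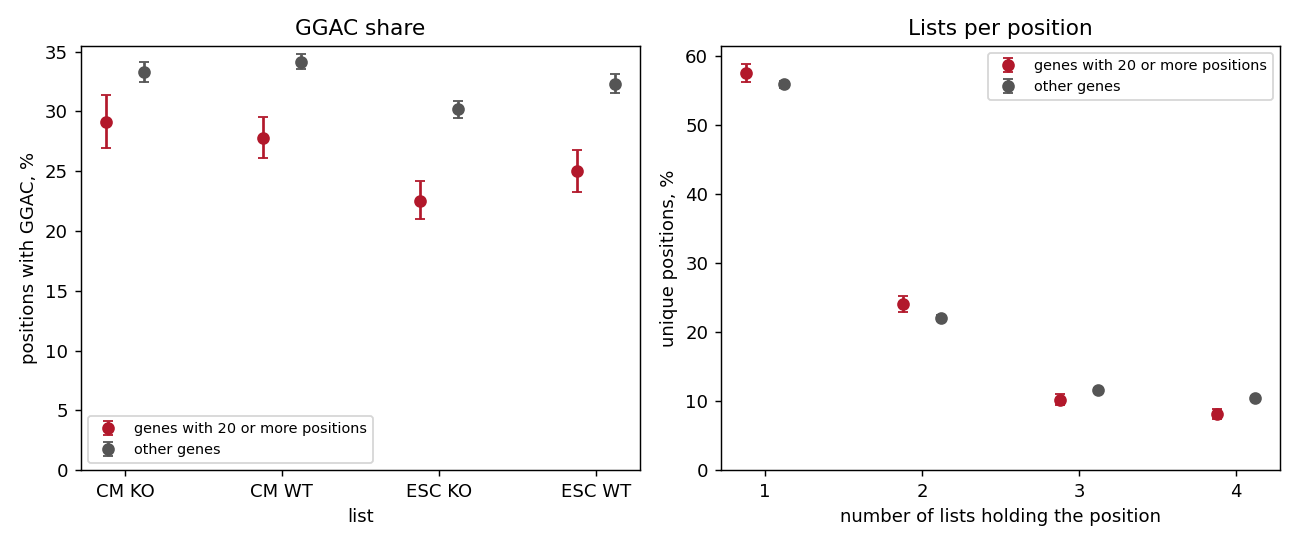
Left, share of positions with GGAC (y axis, %) by list; right, share of unique positions (y axis, %) by the number of lists that hold them. Points are the 118 genes and all other genes, with exact 95% intervals; the set lies below the other genes in GGAC share in every list, and 57.6% of its positions are in 1 list.

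Between genotypes in CM, the set had fewer positions in KO. The 1692 positions in CM KO were 0.645 times the 2624 in CM WT (95% interval 0.606 to 0.686), and the other genes gave 0.534, so that as a share of the whole list the ratio turned round to 1.18. Fewer positions in CM KO than in CM WT were found in 98 of the 118 genes, more in 12 and equal numbers in 8. No share over all genes stands beside these counts. Since the other genes together had the lower ratio, the counts are not read as a trait of the set. With 5 added to each count, 15 genes had a ratio of 0.5 or less and 2 had a ratio of 2 or more; among all 441 genes with 10 or more positions in either list these shares were 13.4% and 0.227%. The 2 genes were Adnp, whose case is given above, and Gm38393 (7 in CM KO and 1 in CM WT), which had fewer than 10 positions in either list. The lowest ratios after Grb10 and Gm20716 belonged to Ptprg (3 in CM KO and 22 in CM WT), Rian and Amot, encoding the Hippo pathway adaptor angiomotin (5 in CM KO and 23 in CM WT).

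In ESC the set had slightly more positions in KO, 1.18 times those in WT (1.12 to 1.25), and the ratio of shares of the list was 1.11. More positions in ESC KO than in ESC WT were found in 67 genes and fewer in 37, again without a share over all genes beside them. With 5 added, ratios of 2 or more occurred in 6 genes, against 2.61% of 383 genes, and of 0.5 or less in 2, against 0%. Those 2 were Grb10 and Rian, both with fewer than 10 positions in either ESC list. The highest belonged to Gm38393 (27 in ESC KO and 3 in ESC WT), Ranbp17, an importin family gene (34 and 9), Fut9 (26 and 7), Trps1, a GATA-type repressor gene (45 and 17), and Usp9x (29 and 11). Because the counts chose the genes, nothing further is read from these shares.

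**Figure D5:**
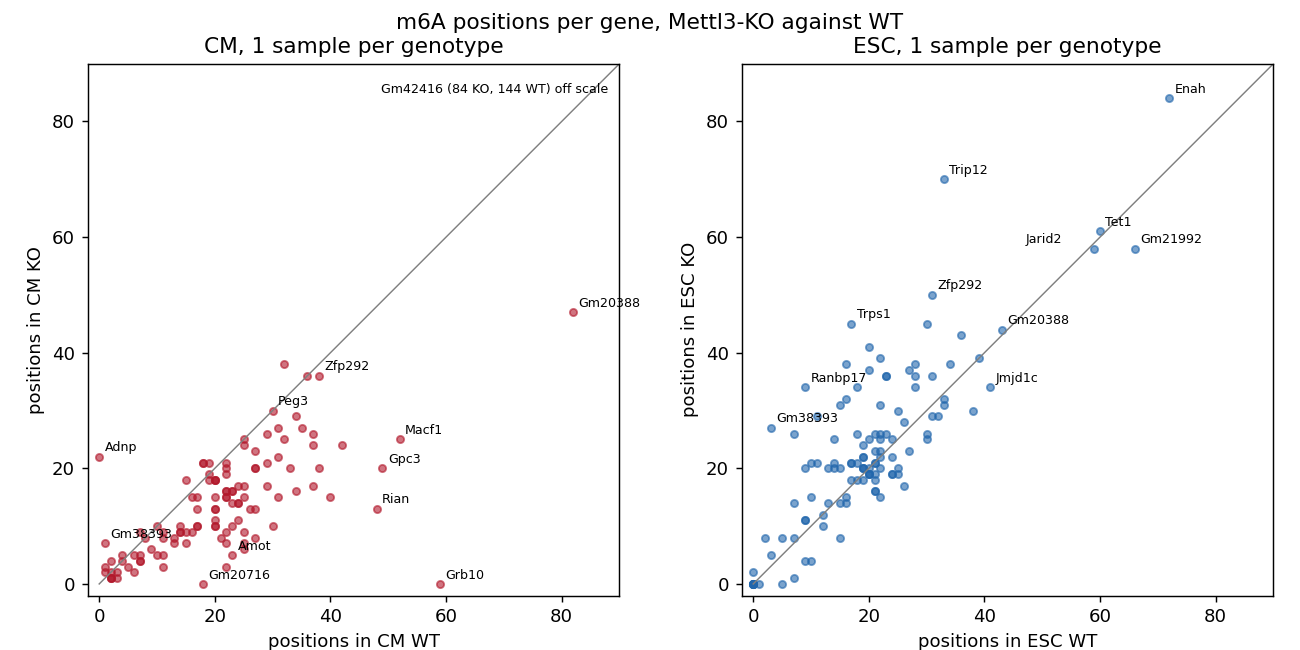
Positions per gene in Mettl3-KO (y axis) against WT (x axis) in CM (left) and ESC (right), with the line of equal numbers. In CM 98 genes lie below the line and 12 above it, and in ESC 67 lie above it and 37 below; Gm42416 (84 in CM KO, 144 in CM WT) is off the scale.

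At the level of single bases, 61.0% of the set's CM KO positions were also in CM WT (58.6 to 63.3), and 39.3% of the CM WT positions were in CM KO. In ESC, 45.4% of the KO positions were in WT and 53.8% of the WT positions in KO. The other genes gave 65.9% for CM KO in CM WT and 51.6% for ESC KO in ESC WT, both above the set's interval. In the reverse direction they gave 35.2% for CM WT in CM KO, below the set's interval (37.5 to 41.2), and 53.9% for ESC WT in ESC KO, inside it. These shares include genes with no position in the second list. In genes with a position in both, the set lay below the other genes in both directions. It had 40.5% against 43.0% for CM WT in CM KO and 61.8% against 66.6% for CM KO in CM WT. In ESC it had 53.9% against 57.1% for WT in KO and 45.4% against 54.4% for KO in WT. Where at least 50% of a gene's positions lay in 10 kb, 52.5% of the ESC KO positions were in ESC WT (49.5 to 55.4), against 40.7% (38.3 to 43.1) in the other genes of the set. For CM WT in CM KO the shares were 44.0% (41.1 to 46.9) against 35.6% (33.1 to 38.1). The intervals overlapped for ESC WT in ESC KO, with 56.3% against 51.7%, and for CM KO in CM WT, with 59.8% against 62.2%.

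Between cell types, the set had 1.12 times as many positions in CM WT as in ESC WT, 2624 against 2349, whereas the other genes had 1.57 times as many; as a share of the list the set's ratio turned round to 0.741. In KO cells the ratio of CM to ESC was 0.608 for the set and 0.802 for other genes. With 5 added, 24 genes had a ratio of 2 or more for CM WT over ESC WT and 22 a ratio of 0.5 or less, against 20.8% and 6.11% of all 524 genes with 10 or more positions in either list. For CM KO over ESC KO these numbers were 14 and 45, against 5.87% and 27% of 392 genes. The highest ratios for CM WT over ESC WT belonged to Gm42416, Fat4, Apob, Gpc3 and Grb10, and the lowest to Mybl2, a cell cycle transcription factor gene (4 positions in CM WT and 31 in ESC WT), Nop58, Jarid2, Tet1 and Enah. Sharing of single bases is given in both directions, as the lists differ in size. Of the set's ESC WT positions, 40.7% were in CM WT (38.7 to 42.7), against 54.9% in the other genes, while of its CM WT positions 36.4% were in ESC WT (34.6 to 38.3), against 35.0%. Of its ESC KO positions, 28.6% were in CM KO (26.9 to 30.3), against 40.2%, and of its CM KO positions 46.9% were in ESC KO (44.5 to 49.3), against 50.1%. In genes with a position in both lists, the set's shares were below those of the other genes in both directions. They were 40.7% against 57.5% for ESC WT in CM WT, 39.2% against 45.9% for CM WT in ESC WT, 28.8% against 47.0% for ESC KO in CM KO and 50.1% against 58.2% for CM KO in ESC KO.

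In ChrRNA-seq, which the choice of genes did not use, the set lay above most genes. Its median RPKM was 3.23 in CM KO, 2.85 in CM WT, 4.08 in ESC KO and 4.24 in ESC WT, against 1.13, 0.874, 1.15 and 1.26 for the other genes with a position and 0.340, 0.330, 0.297 and 0.343 for all listed genes. In CM KO 113 of the 117 listed genes exceeded the median of all genes, and in ESC KO 108 of 117. Over all genes with a position, position numbers rose with RPKM. The Spearman coefficients were 0.33 in CM KO, 0.36 in CM WT, 0.43 in ESC KO and 0.41 in ESC WT. A choice by position numbers thus leans towards genes with more RNA, and the level of the set is a description. Nop58, a component of box C/D small nucleolar ribonucleoproteins, had the highest level in each group, with 42.1, 21.4, 54.6 and 51.9 RPKM in CM KO, CM WT, ESC KO and ESC WT, yet only 2, 2, 19 and 20 positions. Macf1 had 2.02, 2.39, 3.20 and 3.69 RPKM with 25, 52, 34 and 28 positions.

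Few genes of the set differed between genotypes in chromatin RNA by 2-fold or more on the scale of RPKM plus 1. In CM, 1 of 108 tested was higher in KO, against 2.11% of all genes, and 4 were lower, against 1.37%. The higher one was Gm20716 and the lower ones Adnp, Apob, Grb10 and Zim1, the first of each being the pair of names given above. Apob had 4.21 RPKM in CM KO and 10.3 in CM WT, a ratio of 0.408 (0.395 to 0.422), and Zim1 had 0.818 and 2.64. In ESC, none of 102 was higher in KO, against 1.49%, and 1, Grb10, was lower, against 0.649%. The count of 0 rests on the 1 added to RPKM. Without it, the ratio of ESC KO to ESC WT was 2.48 (2.41 to 2.56) for Gpc3 and 2.03 (1.98 to 2.08) for Fut9. The median log2 ratio of the set was 0.20 in CM against 0.13 for all genes, and -0.06 in ESC against -0.09. With 1 library per group there is no test of these differences.

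Chromatin RNA and positions could be set side by side in 117 genes. In CM, 71 of them had more RNA and fewer positions in KO than in WT, 27 had less of both and 10 more of both. The signs of the position numbers go with the size of the lists, since CM KO held 13962 positions over all genes and CM WT 25617. The signs of the RNA go with the scaling of the libraries. Scaled to a median log2 ratio of 0 over all genes, the set's median fell from 0.20 to 0.069 in CM. In ESC it turned from -0.06 to 0.031. No share over all genes stands beside these counts of signs, in CM or in ESC, so they are not read as a trait of the set. Mki67 had 9.35 RPKM in CM KO and 5.13 in CM WT, a ratio of 1.82 (1.75 to 1.89), with 36 positions in each. Amot had 6.55 and 4.92 RPKM, a ratio of 1.33 (1.29 to 1.37), with 5 and 23 positions in CM KO and CM WT. The Spearman coefficient of the 2 ratios across genes was 0.36 in CM and 0.44 in ESC. In ESC, 37 genes had less RNA and more positions in KO, 10 more RNA and fewer positions, 30 more of both and 27 less of both. Trip12, with 70 positions in ESC KO and 33 in ESC WT, had 7.74 and 6.97 RPKM, a ratio of 1.11 (1.09 to 1.13). Jarid2 had 58 and 59 positions with 7.14 and 8.80 RPKM in ESC KO and ESC WT.

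Between cell types the coefficients across 117 genes were 0.86 for CM WT over ESC WT and 0.78 for CM KO over ESC KO. They use the position numbers that chose the genes, of which 9 reached 20 in both CM lists only and 17 in both ESC lists only, and are a description. In WT cells, 12 of 111 genes had at least 2-fold higher RNA in CM, against 4.6% of all genes, and 23 had lower RNA, against 6.5%. The 12 include Adnp and the 23 Gm20716, the 2 names of one locus. In KO cells 9 of 108 were higher in CM, against 5%, and 12 lower, against 3.67%. A gene could enter the set through the cell type where its RNA was high. These RNA shares are therefore not independent of the choice of genes and are a description only. Apob had 10.3 RPKM in CM WT and 0.0383 in ESC WT, a ratio of 269 (199 to 373). Pcdh7, a protocadherin gene, had 1.56 RPKM and 24 positions in CM WT, against 0.00706 RPKM and no position in ESC WT. Tet1 had 1.45 RPKM in CM WT and 11.8 in ESC WT, a ratio of 0.123 (0.119 to 0.128), beside its 14 and 60 positions. Enah had 3.82 RPKM and 18 positions in CM WT, against 12.9 RPKM and 72 positions in ESC WT. Cobl, an actin nucleator gene, had 0.194 RPKM and 1 position in CM KO, against 4.71 RPKM and 38 positions in ESC KO. Both comparisons of cell types and both of genotypes share libraries, so each is given on its own. Fgfr2 had 0.397 RPKM and 42 positions in CM WT, against 0.602 RPKM and 14 positions in ESC WT, most of the CM WT positions lying beyond its RefSeq length.

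ATAC-seq gave a second readout of the 111 genes with coordinates. The accessible intervals inside them numbered 683 ± 37.0 in CM KO, 769 ± 28.9 in CM WT, 1126 ± 36.6 in ESC KO and 1103 ± 75.0 in ESC WT (SD, n = 3 each). The 3 CM KO libraries had 646, 720 and 682 and the 3 CM WT libraries 753, 802 and 751. All CM KO libraries lay below all CM WT libraries in number, but above them as a share of all intervals, with 0.933% ± 0.0108 in CM KO and 0.866% ± 0.0165 in CM WT, the direction turning with the scaling. ESC KO and ESC WT overlapped, with 0.982% ± 0.0115 and 0.980% ± 0.0127. With 3 against 3 libraries no exact permutation test can go below p = 0.1, and none is given. The labels do not say whether the libraries came from separate cultures, so the spread may be technical.

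Fewer intervals in every CM WT library than in any ESC WT library were found in 60 of the 111 genes, against 22.5% of all protein-coding genes with an interval in any library. Since longer genes hold more intervals, genes of 50 kb or longer are the nearer comparison: 50 of the 81 such genes of the set were lower, against 35.7%. As a share of the library 31 of the 81 were lower, against 22.8%, and 6 higher, against 24.1%. A gene could enter the set through the cell type where it had more positions and more RNA. How far its intervals go with that choice was not tested. The shares between cell types, here and below, are therefore a description only. Tet1 had 6, 5 and 7 intervals in CM WT and 14, 15 and 18 in ESC WT, and Jarid2 had 10, 13 and 10 in CM WT and 29, 22 and 23 in ESC WT. Both genes are among the 5 named for the lowest ratio of positions in CM WT over ESC WT. Their fewer positions in CM WT are thus part of that choice. Both also had less RNA in CM. In the other direction, 2 genes had more intervals in every CM WT library, against 4.08% of all protein-coding genes and 6.43% of those of 50 kb or longer. They were Amot, with 4, 5 and 3 in CM WT and 2 in each ESC WT library, and Pcdh7, with 9, 12 and 9 in CM WT and 4 in each ESC WT library. Between the KO groups, 69 genes were lower in CM KO than in ESC KO, against 29.3%, and none was higher, against 0.621%. Of the 81 genes of 50 kb or longer, 58 were lower, against 56.1%, and none higher, against 0.39%. As a share of the library 20 of the 81 were lower, against 20.7%, and 9 higher, against 17.2%.

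Between genotypes, 11 of the 111 genes had fewer intervals in every CM KO library than in any CM WT library, against 9.7% of protein-coding genes, and 4 had more, against 1.24%. Among the 81 genes of 50 kb or longer, 10 had fewer, against 22%, and 4 had more, against 1.48%. As a share of the library 7 of the 81 were lower, against 15.2%, and 22 higher, against 17.7%. The lower genes include Ptprg, with 21, 21 and 25 in CM KO and 35, 35 and 34 in CM WT, and Meg3, with 2, 2 and 1 in CM KO and 3, 5 and 5 in CM WT. In ESC, 10 were higher in KO, against 3.46%, and 4 lower, against 2.71%; of the 81, 9 were higher, against 7.43%, and 3 lower, against 4.41%. By share of the library 14 of the 81 were higher in ESC KO, against 10.5%, and 9 lower, against 11.7%. Gpc3 had 13, 14 and 14 intervals in ESC KO and 10, 9 and 9 in ESC WT, beside 8 and 2 positions and 1.48 and 0.595 RPKM. Ptprg had 40, 39 and 39 in ESC KO and 57, 49 and 50 in ESC WT, with 0.784 and 1.46 RPKM. Grb10, in contrast to its RNA and positions, had overlapping numbers, with 9, 13 and 8 in CM KO and 11, 10 and 11 in CM WT, and 9, 12 and 10 in ESC KO and 14, 12 and 8 in ESC WT.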

How the data were processed

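Groups were taken from the sample titles. Chrm6A-seq lists give, per gene, a motif and the deposited position (distance of the motif's first base from the gene start); 204 of 435 early positions had the motif at that distance in the RefSeq sequence, and at most 9 at any other distance within 12 bases. ChrRNA-seq values are RPKM deposited by the authors. ATAC-seq interval lists carry the deposited fold enrichment (a ratio) and the −log10 q of each interval, the second used only in an alternative. Per the submitters' processing notes, the tools included HISAT2, MACS2, Bowtie, cutadapt and Picard, without roles, and the build was mm10. The sources used here do not say how positions were called.

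Repeated lines were dropped before counting. Names came from the reference tables, and lengths and coordinates from RefSeq GRCm38.p6. Log2 ratios used RPKM plus 1 among genes with 1 RPKM or more in either library. A gene called changed differed at least 2-fold on that scale. Genes not listed in a table were taken as 0 for such calls. Estimated reads per gene, behind the intervals of RPKM ratios, came from RPKM, length and a depth at which 54.2% to 56.5% of low genes gave whole reads (within 0.05). Intervals are exact Clopper-Pearson 95% intervals. The labels of ATAC-seq CM KO replicate 3 give RNA as its molecule, but its list has the layout of the others and was used. An ATAC-seq interval was counted in a gene whose RefSeq span it overlaps. The motif comparison had been planned for DRACH, but the lists give 4 letters only, so the GGAC share was used. Genes named with values are the 10 with the most positions in each list, the 5 highest and 5 lowest ratios in each comparison, the extremes of density, length, RPKM and sharing, those at the threshold and examples of the gene lists. The genes, gene lists and comparisons were chosen with earlier results of these data known. Counting was tested on simulated data. Python 3.11.15, pandas 2.3.3 and scipy 1.17.1 were used. Some results are not reported here.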

Additional observations from a re-analysis of the deposited data

Results flagged for a closer look

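The number of positions in the 118 genes was lower in KO in CM and higher in KO in ESC. It was 0.645 times as high in CM KO as in CM WT, and 1.18 times as high in ESC KO as in ESC WT. The other genes gave 0.534 and 1.05, and as a share of the list the ratios of the set were 1.18 in CM and 1.11 in ESC, so the opposite directions were not seen on that scale. The counts also chose the genes, each ratio rests on 1 list per group, and the difference between the ratios was not tested.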

How the results depend on the processing

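A threshold of 15 gave 245 genes and one of 30 gave 52, with 20.6%, 17.0%, 23.9% and 21.9% and with 6.75%, 5.84%, 9.02% and 7.83% of the positions in CM KO, CM WT, ESC KO and ESC WT. Divided by list size, the ratios of positions were 1.18 for CM KO over CM WT (reversed), 1.11 for ESC KO over ESC WT, 0.741 for CM WT over ESC WT (reversed) and 0.788 for CM KO over ESC KO. With GGAC positions only, chosen after seeing the data, the last 3 were 1.07, 1.24 and 0.786. Without Adnp, Gm20716, Gm20388, Gm42416, Fgfr2 and Chd1, also chosen after seeing the data, CM WT over ESC WT was 1.03 and CM KO over ESC KO 0.568. Within 50 bases, sharing was 74.4% for CM KO in CM WT, 54.7% for ESC KO in ESC WT, 45.6% for CM WT in ESC WT and 59.1% for CM KO in ESC KO. At a threshold of 15 the last 3 were 47.7%, 38.5% and 49.7%, and at 30 CM WT in ESC WT was 33.0%. Libraries scaled to a median log2 ratio of 0 gave medians for the set of 0.069 for CM KO over CM WT, 0.031 for ESC KO over ESC WT (reversed) and -0.10 for CM WT over ESC WT, with 14 genes lower in that comparison. A pseudocount of 0.1 gave 1 gene higher in ESC KO, 36 lower in CM WT than in ESC WT and 20 lower in CM KO than in ESC KO. In the 37 genes that overlap no other, coefficients with length were -0.14 in CM WT, 0.33 in ESC KO and 0.071 in ESC WT, and with RPKM 0.41 in CM WT. As a share of the library, the ratio of intervals was 1.08 for CM KO over CM WT (reversed), 0.884 for CM WT over ESC WT and 0.950 for CM KO over ESC KO. For all of these the cause was not tested. The GGAC shares stayed within counting error at thresholds of 15 and 30, and no ATAC-seq ratio moved beyond its spread when 1 library was left out or at a −log10 q of 5 or more. DRACH and RRACH alternatives were not run, since the lists give 4-letter motifs. No paired analysis was possible because the results come from no test and m6A and RNA had 1 sample per group. The unknown depth of the lists limits all position numbers.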
